A study of Mus musculus with 12 samples.

Results

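Extracellular proteolysis in the mouse kidney was followed through 9 genes: the plasminogen activators Plau and Plat, the urokinase receptor Plaur, the metalloproteinases Mmp2, Mmp14 and Adamts1, and the tissue inhibitors of metalloproteinases Timp1, Timp2 and Timp3. The genes were chosen by name, with earlier results of these data known, and the deposited transcript values that map to each were summed. All 9 were found among 13465 genes in the table, and all 9 passed the filter on low values. RNA came from the renal cortex of 4 groups of 3 libraries. CKO IRI mice were labelled as lacking Gpx3, the gene of a secreted glutathione peroxidase, in renal tubular epithelial cells, and had 30 min of bilateral renal ischemia followed by 48 h of reperfusion. WT IRI mice were labelled wild type and had the same ischemia-reperfusion injury (IRI). CKO sham and WT sham mice had the same genotypes and sham treatment. The driver of the tubular deletion, the part of Gpx3 removed, and the strain, age and sex of the mice are not given by the labels. The labels do not tie libraries to single mice, and the spread behind each p-value may be partly technical.

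Urokinase (Plau) and tissue plasminogen activator (Plat) cut plasminogen to plasmin, a serine protease that dissolves fibrin and degrades matrix. Plaur holds urokinase at the cell surface. Mmp14 is a membrane-anchored metalloproteinase that cleaves collagen and activates the secreted gelatinase Mmp2, a step in which Timp2 acts as an adaptor at low levels and as an inhibitor at high levels. Adamts1 is a secreted protease of aggrecan and versican. Timp1 is a soluble inhibitor, whereas Timp3 binds to the matrix and also inhibits ADAM and ADAMTS proteases. Urokinase is made in tubular epithelium and released into urine, and mice without Timp3 develop worse renal fibrosis after ureteral obstruction.

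The values are FPKM, a read count scaled to transcript length and library size, and the header of the table does not name the unit. Library sums lay between 391002 and 422328 FPKM, and read depth is unknown. Replicates varied least in WT sham (median SD per gene 0.10, log2) and more in CKO sham (0.17), CKO IRI (0.23) and WT IRI (0.27). Gpx3 lay between 2779 and 3723 FPKM in CKO IRI, 1075 and 3568 FPKM in WT IRI, 2501 and 3299 FPKM in CKO sham, and 4476 and 5664 FPKM in WT sham. In sham the targeted gene was lower in each CKO library than in each WT library, as were 13.4% of all genes tested, with a log2 difference of -0.81 that was not called (limma adjusted p = 0.135). After IRI the groups overlapped. The mean was higher in CKO IRI, at 3175.6 ± 490.0 FPKM, than in WT IRI, at 2477.1 ± 1280.0 FPKM (SD, n = 3 each), against the label. WT IRI 13, 24 and 49 held 2787.8, 3568.2 and 1075.4 FPKM, so that order leaned on WT IRI 49. The log2 difference of 0.52 was not called (limma adjusted p = 0.577) and ran from -0.0 to 0.86 over alternative settings. Against sham, Gpx3 was called lower after IRI in WT (-1.22, adjusted p = 0.0118) and not in CKO (0.11, adjusted p = 0.871). The WT call was lost in 2 of 23 alternative settings. Genotype differences after IRI are therefore given for libraries as labelled. A joint capsule is named in the protocol text for extraction, while the tissue is labelled kidney. Of 8 cartilage and synovium markers only Comp was in the table, at 0.164 to 1.63 FPKM, while 14 proximal tubule markers summed to 2471 to 12295 FPKM.

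Promoters are shown for 2 genes that rose after IRI, Timp1 and Plaur, and for the gene that fell, Timp3. The RefSeq table of build GRCm38.p6 held promoters for 6 of the 9 genes, each running from 250 bases before the start of transcription to 50 bases after it. Plau, Plat and Mmp2 had none there. Capitals mark TGANTCA, the binding motif of the injury-responsive factor AP-1, and the variant TGAGTAA, which was added after the Timp1 sequence had been read. The Timp1 promoter is chrX:20869916-20870215 (plus strand), the Plaur promoter chr7:24462233-24462532 (plus strand) and the Timp3 promoter chr10:86300162-86300461 (plus strand).
Timp1: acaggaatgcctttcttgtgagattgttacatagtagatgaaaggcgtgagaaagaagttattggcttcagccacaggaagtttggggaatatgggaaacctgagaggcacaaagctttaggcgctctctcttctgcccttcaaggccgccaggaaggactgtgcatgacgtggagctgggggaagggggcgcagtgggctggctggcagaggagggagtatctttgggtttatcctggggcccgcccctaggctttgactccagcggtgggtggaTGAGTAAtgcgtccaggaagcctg
Plaur: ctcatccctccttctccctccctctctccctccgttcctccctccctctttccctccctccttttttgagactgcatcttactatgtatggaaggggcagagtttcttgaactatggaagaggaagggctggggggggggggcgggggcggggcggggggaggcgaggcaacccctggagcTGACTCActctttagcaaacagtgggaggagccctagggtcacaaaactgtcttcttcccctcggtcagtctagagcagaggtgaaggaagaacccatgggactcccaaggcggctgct
Timp3: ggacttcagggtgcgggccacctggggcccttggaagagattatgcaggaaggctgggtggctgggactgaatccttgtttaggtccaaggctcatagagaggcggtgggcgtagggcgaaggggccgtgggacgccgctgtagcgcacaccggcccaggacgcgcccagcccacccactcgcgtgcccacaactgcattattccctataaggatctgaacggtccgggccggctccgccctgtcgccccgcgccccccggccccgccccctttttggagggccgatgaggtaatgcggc
On either strand, TGANTCA occurred in 7.81% of 32851 promoters of this length and TGAGTAA in 2.68%. Plaur held TGACTCA at -69 relative to its start. Timp1 held TGAGTAA at 27 bases after its start (chrX:20870192-20870198), between the starts of the 2 Timp1 transcripts in the table. Neither string was found in the windows of Mmp14 and Adamts1, which also rose after IRI, or in those of Timp2 and Timp3. The 2 risen genes shown are thus the ones with a match. The GC box GGGCGG, present in 35.7% of promoters, was found in all 6 windows, TATAAA (13.6% of promoters) in Adamts1 alone of the 6, and the STAT motif TTCNNNGAA (8.3%) in none. A match is a string of letters in the window and was not tested for binding.

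In the GRCm38 annotation Plau lies at chr14:20836660-20843385 (plus strand), Plat at chr8:22757727-22782844 (plus) and Plaur at chr7:24462484-24475968 (plus). Mmp2 lies at chr8:92827291-92853420 (plus), Mmp14 at chr14:54431612-54445364 (plus) and Adamts1 at chr16:85793827-85803113 (minus). Timp1 lies at chrX:20870166-20874735 (plus), Timp2 at chr11:118301069-118355740 (minus) and Timp3 at chr10:86300372-86349506 (plus). All are protein-coding genes, and the values cover whole transcripts.

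In WT sham cortex Timp3 stood highest, at 512.9 ± 30.5 FPKM (SD, n = 3), above Plau at 273.4 ± 27.3 FPKM. Plat followed at 25.6 ± 2.68, Adamts1 at 13 ± 1.03 and Timp2 at 11.5 ± 1.07 FPKM. Mmp14 (3.28 ± 0.0982), Plaur (3.17 ± 0.220), Timp1 (1.12 ± 0.128) and Mmp2 (0.769 ± 0.368) were low. The libraries of neighbouring genes in this order overlapped between Adamts1 and Timp2, Mmp14 and Plaur, and Timp1 and Mmp2. After IRI the order differed. In CKO IRI and in WT IRI Plau had the highest mean, at 282.2 ± 112.0 and 255.6 ± 122.0 FPKM, with libraries that overlapped those of Timp3. Timp1 ranked 4 of 9 in both IRI groups, against 8 of 9 in both sham groups.

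**Figure D1:**
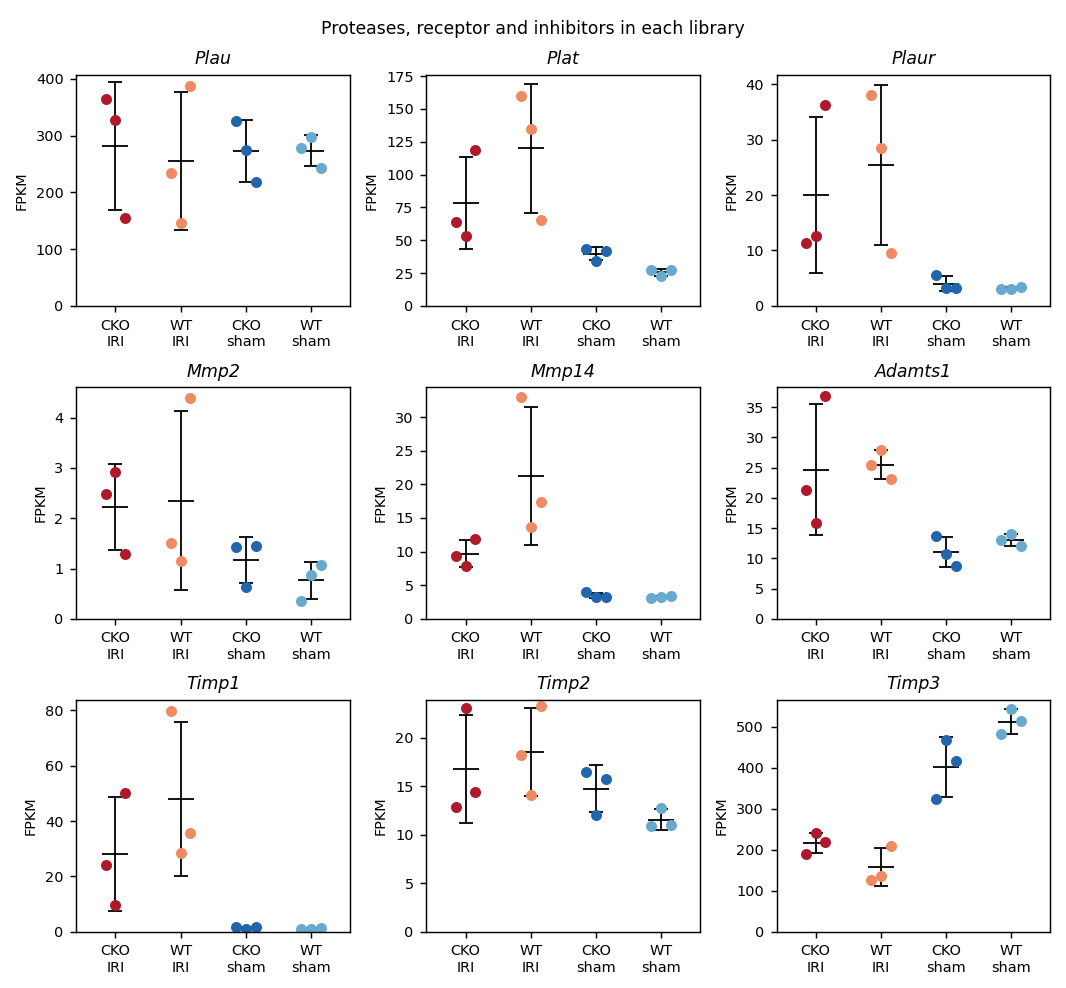
FPKM of each gene in every library (points), with the group mean and SD (bars, n = 3), for CKO IRI, WT IRI, CKO sham and WT sham. Timp1, Mmp14, Plaur, Plat and Adamts1 were higher in all 6 IRI libraries than in any sham library, Timp3 was lower in all 6, and Plau spread widely after IRI around the sham level.

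The main question for these genes was how injury changed them. Averaged over both genotypes, 5 of the 9 rose after IRI (Timp1, Plaur, Mmp14, Plat and Adamts1) and 1 fell (Timp3), where limma called 25.0% of the 12469 tested genes higher and 11.8% lower. Of the remaining genes, Mmp2 (log2 change 0.69, adjusted p = 0.0539) and Timp2 (0.38, adjusted p = 0.0829) missed the threshold of 0.05, and Plau was at -0.12 (adjusted p = 0.734). The median log2 change of the 9 genes was 0.97, against 0.10 for all genes tested. The genes were chosen with earlier results of these data known, so these shares describe the set and do not test it. In each of the 6 called genes the 6 IRI libraries did not overlap the 6 sham libraries, which held for 12.7% of all genes in the direction higher and 4.11% in the direction lower. All 6 calls held under each of the 22 alternative settings tried, among them other scalings, under which the called genes split 2180 higher to 2171 lower (quantile) or 2206 to 2184 (trimmed mean) in place of 3117 to 1474. Within genotypes, 4 of the 9 rose and 1 fell in CKO, where 6.6% of all genes were called higher and 2.02% lower. In WT 5 rose and 1 fell, beside 23.5% and 11.8% of all genes. The 5 calls in CKO numbered 3 when only the 2 CKO groups were fitted, 2 if either CKO sham 2 or CKO sham 3 was left out, and 1 without CKO IRI 7. Log2 changes are differences of mean log2(FPKM + 1), which understate changes of low genes. In bulk cortex, fewer cells of a type and less RNA per cell cannot be told apart.

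**Figure D2:**
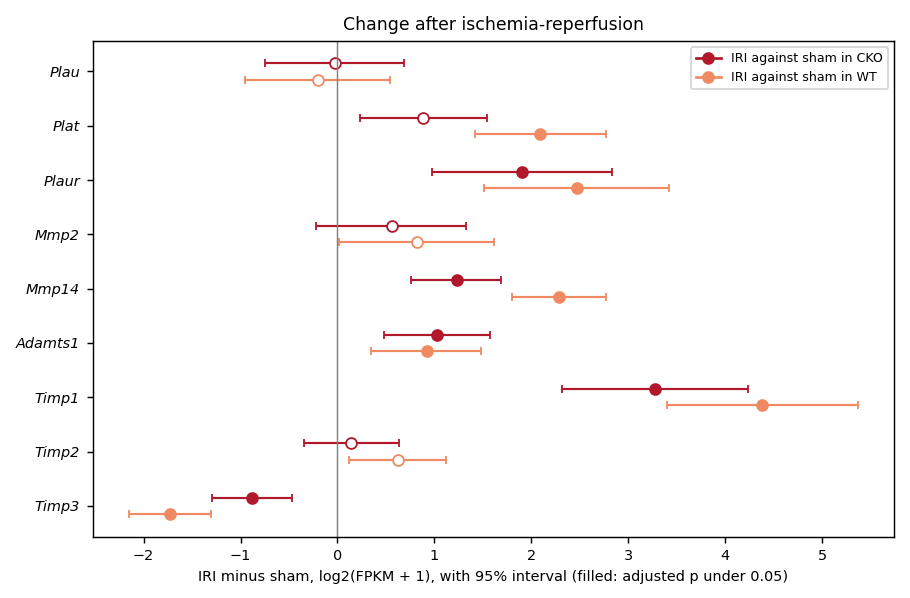
Log2 change after IRI (IRI minus sham, log2(FPKM + 1)) with its 95% interval, in CKO and in WT, filled where the adjusted p was under 0.05. The change of Timp1 was 3.28 in CKO and 4.38 in WT, that of Timp3 -0.88 and -1.73, and the intervals of Plau span 0 in both.

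Of the activators, Plat changed and Plau did not pass the test. Plat measured 64.1, 52.9 and 118.6 FPKM in CKO IRI 7, 15 and 29, and 159.8, 134.6 and 65.4 FPKM in WT IRI 13, 24 and 49. It measured 43.3, 34.1 and 41.9 FPKM in CKO sham 1, 2 and 3, and 27.05, 22.5 and 27.2 FPKM in WT sham 1, 2 and 3. No IRI library reached down to a sham library, and the mean change was 1.49 (log2, SE 0.21, limma adjusted p = 0.000458). The exact two-sided permutation test within genotypes gave 0.005, the smallest p it allows, for Plat and for each of the other 5 called genes. Any gene whose IRI and sham libraries do not overlap gets this p, so it adds nothing to the lack of overlap. That lack was seen in 12.7% of all genes in the direction higher and 4.11% in the direction lower. In WT the rise was 2.09 (SE 0.31, adjusted p = 0.000788). In CKO the difference was 0.88 (SE 0.30) and missed the threshold (adjusted p = 0.0896), though its libraries did not overlap, as for 21.4% of all genes in that direction. It passed without CKO IRI 15 (0.0496), without CKO IRI 15 and WT IRI 49 together (0.0250) and with 1 weight per library (0.0151).

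Plau held 364.9, 327.4 and 154.3 FPKM in CKO IRI 7, 15 and 29, and 234.2, 145.7 and 386.8 FPKM in WT IRI 13, 24 and 49. The sham libraries held 326.6, 274.7 and 218.3 FPKM (CKO) and 278.8, 297.5 and 243.8 FPKM (WT). Both IRI groups spread above and below their sham libraries. The difference was -0.03 in CKO (95% interval -0.75 to 0.69) and -0.20 in WT (-0.95 to 0.54), so a change of up to 0.95 on the log2 scale in WT lies within the error. Its sign turned when single libraries were left out.

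Plaur, the urokinase receptor gene, rose. It measured 11.3, 12.6 and 36.3 FPKM in CKO IRI 7, 15 and 29, and 38.1, 28.5 and 9.63 FPKM in WT IRI 13, 24 and 49. In sham it measured 5.61, 3.23 and 3.27 FPKM (CKO) and 2.97, 3.14 and 3.41 FPKM (WT), so the lowest IRI library lay above the highest sham library. The mean change was 2.18 (log2, SE 0.30, limma adjusted p = 0.000385), rank 125 from the largest rise among the genes tested. The rise was 1.90 in CKO (SE 0.42, adjusted p = 0.0200) and 2.47 in WT (SE 0.43, adjusted p = 0.00195). In CKO the adjusted p missed the threshold when CKO sham 2 (0.0932), CKO sham 3 (0.0928) or CKO IRI 7 (0.0694) was left out, and when only these 2 groups were fitted (0.0720).

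Among the metalloproteinases, Mmp14 gave the smallest p. It measured 9.28, 7.90 and 11.8 FPKM in CKO IRI 7, 15 and 29, and 32.9, 13.6 and 17.4 FPKM in WT IRI 13, 24 and 49. Sham values lay close together, at 3.94, 3.31 and 3.31 FPKM in CKO and 3.17, 3.30 and 3.36 FPKM in WT. Each IRI library was well above each sham library, and each WT IRI library was above each CKO IRI library. The mean change was 1.76 (log2, SE 0.15, limma adjusted p = 1.82e-05). By genotype the rise was 1.23 in CKO (SE 0.21, adjusted p = 0.00597) and 2.29 in WT (SE 0.22, adjusted p = 6.44e-05). The CKO call was lost without CKO IRI 7 (0.0658).

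Adamts1 measured 21.3, 15.9 and 36.9 FPKM in CKO IRI 7, 15 and 29, and 25.4, 27.9 and 23.2 FPKM in WT IRI 13, 24 and 49. Sham libraries held 13.6, 10.8 and 8.78 FPKM (CKO) and 13.05, 14.03 and 11.98 FPKM (WT). The 2 sets of libraries came close, at 15.9 FPKM in CKO IRI 15 against 14.03 FPKM in WT sham 2, but did not overlap. The mean change was 0.97 (log2, SE 0.18, limma adjusted p = 0.00195), with 1.03 in CKO (adjusted p = 0.0289) and 0.92 in WT (adjusted p = 0.0185). The WT call was lost without WT IRI 24 (0.144). In CKO it was lost if CKO IRI 7 (0.130), CKO IRI 29 (0.0731), CKO sham 2 (0.104) or CKO sham 3 (0.124) was dropped, and when only these 2 groups were fitted (0.125).

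Mmp2, which Mmp14 activates, had the lowest mean of the 9 genes in each group. It measured 2.48, 2.92 and 1.28 FPKM in CKO IRI 7, 15 and 29, and 1.5, 1.15 and 4.4 FPKM in WT IRI 13, 24 and 49, against 1.42, 0.64 and 1.45 FPKM in CKO sham and 0.36, 0.88 and 1.07 FPKM in WT sham. WT IRI libraries lay above WT sham libraries, as for 35.2% of all genes, while CKO IRI and CKO sham overlapped. The differences were 0.56 in CKO (adjusted p = 0.372) and 0.82 in WT (adjusted p = 0.102). The mean over both genotypes passed without WT sham 3 (adjusted p 0.0382) or CKO IRI 29 (0.0363), with 1 spread shared by all libraries (0.0473) and with 1 weight per library (0.0240).

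The 3 inhibitors went different ways. Timp1 measured 24.2, 9.58 and 50.2 FPKM in CKO IRI 7, 15 and 29, and 79.7, 28.3 and 35.8 FPKM in WT IRI 13, 24 and 49. In sham it measured 1.74, 1.03 and 1.67 FPKM (CKO) and 0.99, 1.13 and 1.25 FPKM (WT). The lowest IRI library, CKO IRI 15, was far above each sham library. The mean change was 3.83 (log2, SE 0.31, limma adjusted p = 1.10e-05), rank 10 from the largest rise among 12469 genes. It was 3.28 in CKO (SE 0.43, adjusted p = 0.00109) and 4.38 in WT (SE 0.45, adjusted p = 9.84e-05).

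Timp1 was the sum of 2 deposited transcripts whose starts differ on the X chromosome (20870166 and 20870221) and which share a coding length of 615 bases. The longer one, ENSMUST00000115342.9, held 60.5%, 16.4% and 56.4% of the Timp1 level in CKO IRI 7, 15 and 29, and 96.9%, 89.1% and 62.4% in WT IRI 13, 24 and 49. Its share was 70.1%, 65.0% and 98.8% in CKO sham 1, 2 and 3 and 38.4%, 46.9% and 48.4% in WT sham. The share spread most within CKO IRI. Both transcripts were higher in each IRI library than in any WT sham library, but the longer one was at 1.57 FPKM in CKO IRI 15, below CKO sham 3 at 1.65 FPKM. With that transcript alone, the CKO change of Timp1 was 2.30 and lost its call (adjusted p 0.0797). The library kit keeps strand, but whether counting used it, and how reads were divided between such transcripts, is not stated in the labels. Timp1 lies inside Syn1 on the opposite strand, which was not among the genes analysed here.

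Timp3, the leading inhibitor of sham cortex, fell. It measured 190.6, 239.8 and 218.7 FPKM in CKO IRI 7, 15 and 29, and 126.3, 136.9 and 210.4 FPKM in WT IRI 13, 24 and 49. Sham values were 323.8, 467.2 and 415.6 FPKM in CKO and 481.7, 542.6 and 514.5 FPKM in WT, so each IRI library lay below each sham library. The mean change was -1.31 (log2, SE 0.13, limma adjusted p = 6.07e-05), rank 186 from the largest fall. By genotype it was -0.88 in CKO (SE 0.19, adjusted p = 0.0167) and -1.73 in WT (SE 0.19, adjusted p = 0.000174). In CKO it did not pass once CKO sham 2 (0.0759), CKO sham 3 (0.0695) or CKO IRI 7 (0.164) was left out. Timp3 lies inside Syn3 on the opposite strand, which held 0.393 to 1.63 FPKM. A second, short transcript of Timp3 held at most 1.34 FPKM in any library.

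Timp2 did not pass the test. It measured 12.8, 23.1 and 14.4 FPKM in CKO IRI 7, 15 and 29, and 18.2, 14.1 and 23.2 FPKM in WT IRI 13, 24 and 49, against 16.5, 12.03 and 15.8 FPKM in CKO sham and 10.85, 12.8 and 10.99 FPKM in WT sham. WT IRI libraries lay above WT sham libraries, as for 35.2% of all genes, and the CKO groups overlapped. The difference was 0.14 in CKO (95% interval -0.34 to 0.63) and 0.62 in WT (0.12 to 1.12, adjusted p = 0.0557). The WT difference passed when CKO IRI 7 (0.0473), CKO IRI 15 (0.0337), CKO sham 2 (0.0493) or WT sham 2 (0.0462) was left out. Timp2 overlaps Cep295nl on the same strand.

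The fall of Timp3 and the rise of Timp1 changed the make-up of the TIMP transcripts. Timp1, Timp2 and Timp3 together summed to 227.6, 272.5 and 283.2 FPKM in CKO IRI 7, 15 and 29 and to 224.2, 179.3 and 269.4 FPKM in WT IRI 13, 24 and 49. The same sum was 342.0 to 480.2 FPKM in CKO sham and 493.5 to 556.5 FPKM in WT sham, above each IRI library. Timp1 made up 3.51% to 17.7% of the sum in CKO IRI and 13.3% to 35.6% in WT IRI, against 0.214% to 0.510% in CKO sham and 0.201% to 0.237% in WT sham. Timp3 was still the larger part in each IRI library, at 56.3% or more. These sums are FPKM of RNA and are given with no test.

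**Figure D3:**
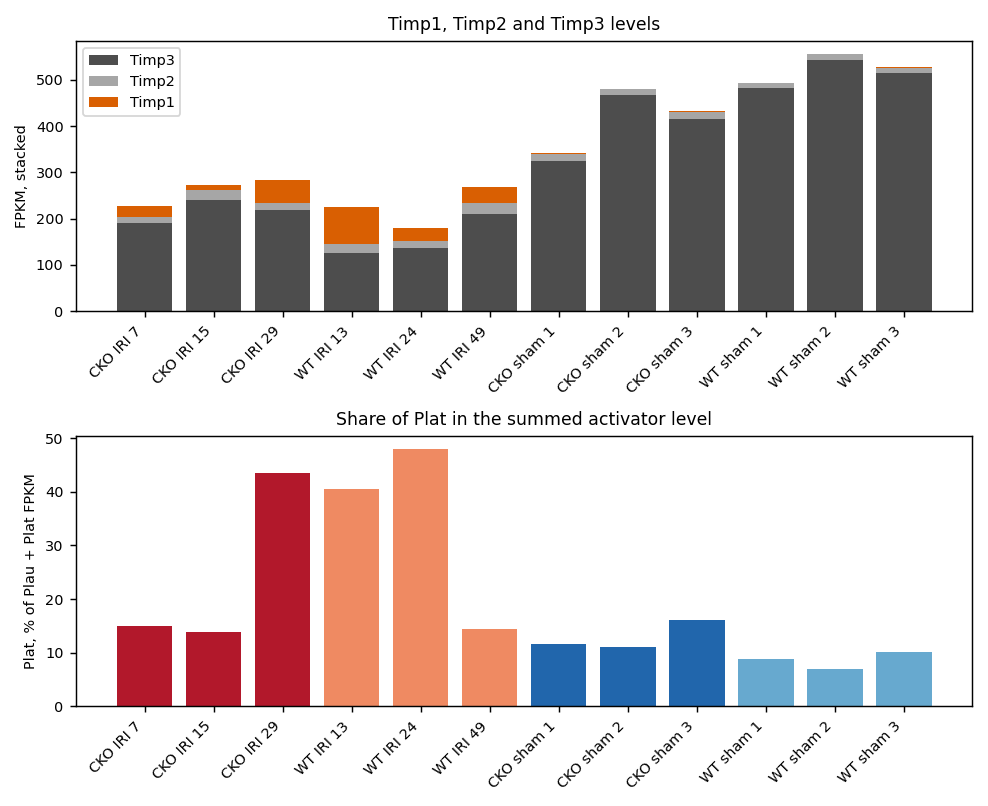
Upper panel, FPKM of Timp1, Timp2 and Timp3 stacked for each library. Lower panel, Plat as a percentage of the summed Plau and Plat FPKM. The stacked level was 179.3 to 283.2 FPKM in the 6 IRI libraries and 342.0 to 556.5 FPKM in sham, and Plat made up 40.6%, 48.0% and 43.5% of the activator sum in WT IRI 13, WT IRI 24 and CKO IRI 29.

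Plat and Plau did not vary together among the injured libraries. The share of Plat in the sum of both activators was 14.9%, 13.9% and 43.5% in CKO IRI 7, 15 and 29 and 40.6%, 48.0% and 14.5% in WT IRI 13, 24 and 49, against 11.1% to 16.1% in CKO sham and 7.03% to 10.1% in WT sham. The 3 IRI libraries with the highest Plau (CKO IRI 7, CKO IRI 15 and WT IRI 49) had the lowest Plat and Plaur of the 6. Those 3 also had the highest Mmp2, and the highest sums of 14 proximal tubule markers, at 6368 FPKM in CKO IRI 7, 8891 FPKM in CKO IRI 15 and 6488 FPKM in WT IRI 49. The sums were 3875 FPKM in CKO IRI 29, 2471 FPKM in WT IRI 13 and 2680 FPKM in WT IRI 24. This division cuts across the genotype labels. Summed tubular injury markers ran the other way, with 5381, 2966 and 8095 FPKM in CKO IRI 7, 15 and 29 and 7632, 8227 and 5132 FPKM in WT IRI 13, 24 and 49. The part of cell content or extent of injury in these differences was not tested.

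**Figure D4:**
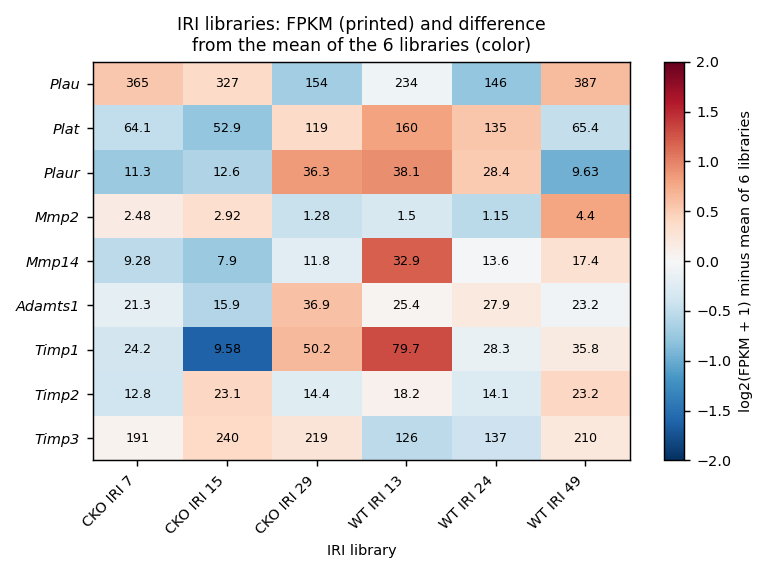
FPKM of the 9 genes (printed) in the 6 IRI libraries, colored by the difference from the mean of the 6 on the log2(FPKM + 1) scale. Plau and Mmp2 were highest in CKO IRI 7, CKO IRI 15 and WT IRI 49, and Plat and Plaur were highest in the other 3 libraries.

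The second question was whether loss of tubular Gpx3 changed these genes. In sham cortex none of the 9 was called between CKO and WT, where limma called 0.136% of all genes (17 of 12469) and 17.8% had an unadjusted p under 0.05. Plat and Timp3 were the 2 of the 9 under 0.05 before adjustment, and they alone did not overlap between the genotypes, beside 15% of all genes higher and 13.4% lower without overlap. Plat averaged 39.8 ± 4.92 FPKM in CKO sham and 25.6 ± 2.68 FPKM in WT sham, and the log2 difference was 0.61 (SE 0.21, limma adjusted p = 0.188). Timp3 averaged 402.2 ± 72.6 FPKM in CKO sham and 512.9 ± 30.5 FPKM in WT sham, a difference of -0.36 (SE 0.13, adjusted p = 0.207). The other differences ran from -0.23 for Adamts1 to 0.32 for Timp2. None of the 9 was called under any alternative tried, where Mmp2 was not tested at a filter of 5 FPKM.

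After IRI, none of the 9 was called between the libraries labelled CKO and WT, where limma called 0.016% of all genes (2 of 12469) and 12.6% had an unadjusted p under 0.05. Mmp14 alone of the 9 had an unadjusted p under 0.05, and it alone did not overlap, beside 11.5% of all genes lower without overlap. It averaged 9.67 ± 1.99 FPKM in CKO IRI and 21.3 ± 10.3 FPKM in WT IRI, a difference of -0.99 (log2, SE 0.27, 95% interval -1.57 to -0.40, limma adjusted p = 0.346). Timp1 differed by -0.89 (-2.09 to 0.30) and Plat by -0.59 (-1.41 to 0.22). Timp3 differed by 0.48 (-0.03 to 1.00), averaging 216.4 ± 24.7 FPKM in CKO IRI and 157.9 ± 45.8 FPKM in WT IRI. These intervals are wide, and a missed threshold does not show that the genotypes were alike.

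The difference between the injury responses was tested as a genotype by IRI interaction, which called 0.016% of all genes and none of the 9. At an unadjusted p under 0.05, which 17.7% of all genes met, 3 of the 9 passed. The IRI change in CKO minus that in WT was -1.06 for Mmp14 (SE 0.31, limma adjusted p = 0.191), 0.85 for Timp3 (SE 0.27, adjusted p = 0.193) and -1.21 for Plat (SE 0.42, adjusted p = 0.209). In each of these 3 the change after IRI was nearer to 0 in CKO than in WT. That was not particular to them. The median change of the tubular injury markers was 1.68 in CKO and 3.01 in WT, and that of the proximal tubule markers -0.73 and -1.51. Of the cell marker lists only the endothelial markers went the other way, with medians of -1.01 in CKO and -0.67 in WT. With 1 weight per library, Plat passed (-1.40, adjusted p = 0.0357). The interaction, the IRI changes and the genotype differences share libraries and are not independent of each other.

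**Figure D5:**
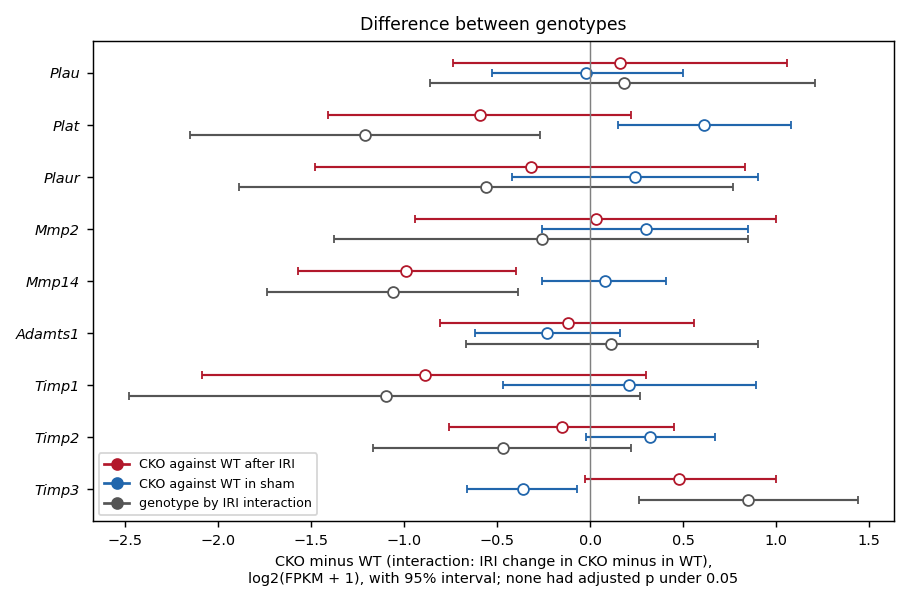
Difference between genotypes after IRI (CKO IRI minus WT IRI), in sham (CKO sham minus WT sham) and between their IRI changes, on the log2(FPKM + 1) scale with 95% intervals. The intervals of Mmp14 after IRI (-1.57 to -0.40), of Plat (0.15 to 1.08) and Timp3 (-0.66 to -0.07) in sham, and of the IRI changes of Mmp14 (-1.74 to -0.39), Timp3 (0.26 to 1.44) and Plat (-2.15 to -0.27) lie off 0, but no adjusted p was under 0.05.

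Most other called genes of the plasminogen system were higher after IRI. Of 16 tested of 20 listed, 9 rose and 2 fell on average over both genotypes, beside 25.0% and 11.8% of all genes, with a median log2 change of 0.43 against 0.10 for all genes tested. In CKO 3 rose and 0 fell (8 higher and 1 lower at an unadjusted p under 0.05), and in WT 8 rose and 2 fell. The 3 rises in CKO came to 0 if CKO IRI 7, CKO sham 2 or CKO sham 3 was left out, and to 1 without CKO IRI 29. In WT 0 fell without WT IRI 24. Plg, which encodes plasminogen itself, was not among the genes analysed here. The annexin Anxa2 and its partner S100a10, a plasminogen-binding pair at the cell surface, rose by 2.73 (adjusted p = 0.000189) and 1.49 (0.000185). S100a10 averaged 346.6 ± 85.0 FPKM in CKO IRI and 493.2 ± 161.0 FPKM in WT IRI, against 165.1 ± 42.5 FPKM in CKO sham and 124.9 ± 8.65 FPKM in WT sham. The membrane serine protease matriptase (St14) rose by 0.83 (adjusted p = 0.000212), and Mrc2, a collagen-uptake receptor that associates with Plaur, by 1.10 (0.00273). Prostasin (Prss8), a channel-activating protease, had a change of -0.75 (adjusted p = 0.0022; 0.0726 with its highest transcript alone) and hepsin (Hpn) one of -0.44 (0.019). Hpn was not called without WT IRI 13 (0.0551) or WT IRI 24 (0.0828).

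Few other metalloproteinases could be tested. Of 23 listed MMPs and inhibitors 8 were tested, and 3 rose and 0 fell on average over both genotypes, beside 25.0% and 11.8% of all genes, with 3 higher and 1 lower at an unadjusted p under 0.05. In CKO 0 rose and 0 fell (2 higher and 0 lower at an unadjusted p under 0.05), with a median log2 change of -0.19, and 1 rose without CKO IRI 15. Matrilysin, Mmp7, a protease made by injured tubules, rose by 1.68 (log2, adjusted p = 0.00385), from a low level. It averaged 2.48 ± 2.77 FPKM in CKO IRI and 3.59 ± 2.37 FPKM in WT IRI, against 0.0222 ± 0.0384 FPKM in CKO sham and 0.0609 ± 0.0608 FPKM in WT sham. Stromelysin 1 (Mmp3) rose by 0.74 (adjusted p = 0.013; 0.0679 after quantile scaling), and its highest group mean was 1.03 FPKM. The third was Mmp23, at 0.54 (0.0245), and it was not called after quantile (0.102) or trimmed-mean scaling (0.0585), or when any 1 of CKO IRI 15, CKO IRI 29, WT IRI 13, WT IRI 49, CKO sham 2 and CKO sham 3 was left out (adjusted p 0.0511 to 0.0661). Leaving out WT IRI 13, WT IRI 49 or CKO IRI 29, or either other scaling, left 1 rise in this list. Without WT sham 1, CKO sham 1 or CKO IRI 15, 1 gene fell. Mmp7 and Mmp3 lay under 1 FPKM in sham and passed the filter only through IRI libraries. For these genes only a rise could be called.

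Of 23 listed ADAMTS genes and ADAMTS-like genes besides Adamts1, 7 were tested. On average over both genotypes 3 rose and 2 fell, beside 25.0% and 11.8% of all genes. In CKO 1 rose (Adamtsl4) and 1 fell (Adamts8), and the rise was lost if any 1 of CKO IRI 7, CKO IRI 29, the 3 WT sham libraries, CKO sham 2 and CKO sham 3 was left out (adjusted p 0.0522 to 0.208). Adamts8 fell by 1.30 (log2, adjusted p = 8.92e-05), averaging 0.250 ± 0.157 FPKM in CKO IRI and 0.182 ± 0.202 FPKM in WT IRI, against 2.35 ± 0.667 FPKM in CKO sham and 1.69 ± 0.204 FPKM in WT sham. Adamts2, which trims the ends of procollagens, rose by 1.11 (adjusted p = 0.00107), and Adamtsl4, a microfibril-associated protein without protease activity, by 1.30 (0.000222). Adamtsl2, also without protease activity, fell by 0.70 (0.0129), though not without CKO IRI 7 (0.0511). Adamts8 passed the filter only through sham libraries and Adamts2 only through IRI libraries, which fixed the direction in which each could be called. The third rise was the aggrecanase Adamts5, at 0.49 (0.0274). It was not called with 1 weight per library (log2 change 0.29, adjusted p 0.111), after quantile (0.135) or trimmed-mean scaling (0.0568), nor when any 1 of CKO IRI 15, CKO IRI 29, WT IRI 13, WT IRI 49 and CKO sham 2 was left out (adjusted p 0.0568 to 0.0764).

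Of 9 tested genes of the ADAM and meprin list, 2 rose and 3 fell on average over both genotypes, beside 25.0% and 11.8% of all genes. In CKO 0 rose and 0 fell (1 higher and 1 lower at an unadjusted p under 0.05). There, 1 rose without WT IRI 13 or CKO sham 1, and 1 rose and 1 fell without CKO IRI 15. Adam8 and Adam12 rose by 1.71 (log2, adjusted p = 0.0026) and 1.03 (0.00118). Both lay under 1 FPKM in sham and passed the filter only through IRI libraries, so only a rise could be called. The brush border proteases meprin alpha (Mep1a), meprin beta (Mep1b) and neprilysin (Mme) fell, with changes of -1.36 (adjusted p = 0.00419), -3.39 (0.00363) and -0.96 (0.00839). The IRI and sham libraries of each overlapped. In WT alone these 3 falls were called as well, but none of them without WT IRI 24 (adjusted p 0.0529, 0.105 and 0.0834). Mep1a averaged 263.0 ± 117.0 FPKM in CKO IRI and 132.1 ± 112.0 FPKM in WT IRI, against 398.2 ± 48.0 FPKM in CKO sham and 431.5 ± 31.4 FPKM in WT sham.

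Most called matrix genes were higher after IRI. Of 21 tested matrix genes 12 rose and 3 fell on average over both genotypes, beside 25.0% and 11.8% of all genes, with a median log2 change of 0.55. In CKO 5 rose and 0 fell (10 higher and 2 lower at an unadjusted p under 0.05). Those rises came to 2 without CKO IRI 7, 3 without CKO IRI 29, CKO sham 2 or CKO sham 3, and 8 without CKO sham 1. The fibrillar collagens Col1a1, Col3a1 and Col1a2 rose by 3.35 (adjusted p = 1.47e-05), 3.07 (1.08e-05) and 2.24 (5.59e-05). The basement membrane linker nidogen (Nid1) rose by 0.89 (0.000649), while Col4a3, of the glomerular basement membrane, fell by 0.72 (0.00109). The other falls were Col5a2 and Hspg2 (perlecan), at -0.50 and -0.31 (adjusted p 0.0208 and 0.0434), and 1 matrix gene fell without CKO sham 2, WT IRI 24 or CKO IRI 7. Adjusted p values there were 0.0521, 0.0654 and 0.0785 for Col5a2 and 0.0902, 0.147 and 0.136 for Hspg2, which was also not called without WT sham 2 (0.0517), CKO sham 3 (0.0788), WT IRI 13 (0.0844) or CKO IRI 29 (0.0799). Hspg2 was also lost at a filter of 5 FPKM (0.0606) and with its highest transcript alone, where its change was -0.19 (0.240).

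Marker lists of other cell types are counted for the change averaged over both genotypes, where 25.0% of all genes were called higher and 11.8% lower. The 11 fibroblast markers summed to 219.4 to 380.1 FPKM in CKO IRI and 204.6 to 526.2 FPKM in WT IRI, against 82.9 to 132.3 FPKM in CKO sham and 75.2 to 82.2 FPKM in WT sham, and 8 of the 11 rose on average. Of these markers 5 are also in the matrix list. For 13 macrophage and monocyte markers the sums were 168.0 to 256.9 FPKM in CKO IRI, 144.4 to 335.4 FPKM in WT IRI, 149.8 to 225.5 FPKM in CKO sham and 119.2 to 135.2 FPKM in WT sham, so the CKO groups overlapped. Of the 13, 4 rose, a share near that of all genes, and 7 rose without CKO sham 1. In CKO alone 0 rose and 1 was higher at an unadjusted p under 0.05, and 1 rose without CKO IRI 15. Of 9 neutrophil markers 3 were in the table, S100a8, S100a9 and Retnlg, the last listed at 0 in at least 1 library. They all rose, summing to 8.40 to 22.1 FPKM in the IRI libraries and 0.807 to 3.78 FPKM in sham. At such low sham levels a fall could hardly be called, and with a filter at 5 FPKM 1 neutrophil marker rose. Endothelial markers summed to 85.0 to 223.7 FPKM in IRI and 233.1 to 376.6 FPKM in sham, with 7 of 10 tested falling, and 4 without WT IRI 24. Podocyte markers summed to 74.0 to 158.3 FPKM in IRI and 121.5 to 155.0 FPKM in sham, which overlap. Of 8 podocyte markers 2 fell, 1 without WT IRI 24 or CKO IRI 7, and 4 after quantile or trimmed-mean scaling. Of 14 proximal tubule markers 13 fell, and of 14 tubular injury markers 13 rose. In CKO alone 2 proximal tubule markers fell, beside 2.02% of all genes, with 8 lower at an unadjusted p under 0.05. That count was 1 without CKO IRI 7, CKO IRI 29, CKO sham 2 or CKO sham 3, 6 without CKO sham 1, and 9 with 1 weight per library. In WT 14 fell, and 7 without WT IRI 24. Of the injury markers 11 rose in CKO, beside 6.6% of all genes, and 7 without CKO IRI 7, CKO sham 2 or CKO sham 3. The part of these cells in the changes of the 9 genes was not tested.

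The genes whose levels followed each member most closely over the 12 libraries were mostly not proteases. Predicted genes, clone names and symbols shared between gene IDs were left out of this ranking. The highest Pearson r of log2(FPKM + 1) with Timp1 belonged to Mcm3 (0.996), a subunit of the replicative helicase, Rrm1 (0.995), of ribonucleotide reductase, and Nsl1 (0.993), of the kinetochore. For Timp3 they were Gid4 (0.997), Mgat3 (0.985) and Pdzd2 (0.983), and for Mmp14 Vrk1 (0.989), Arhgap22 (0.988) and Maged2 (0.987). Plat was followed by Ranbp1 (0.986), Ppp1r14b (0.986) and Ptp4a2 (0.984), Plaur by Dnajc5 (0.978), Zfp668 (0.977) and Pgam5 (0.973), and Adamts1 by Srpk1 (0.972), Adss (0.971) and Prim2 (0.969). Timp2 was nearest to Stx2 (0.966), the collagen receptor Ddr2 (0.941) and the complement protease C1s1 (0.938), and Mmp2 to Pkdcc (0.959), the matrix protein Fbln1 (0.956) and Serpina1b (0.922). Plau had the loosest neighbours, Acot7 (0.922), Tmie (0.904) and Stk32a (0.889). The 12 points share the injury contrast and fall into sham and IRI sets, so these values describe the pattern only.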

How the data were processed

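RNA-seq of mouse renal cortex was deposited by the authors as 1 table of transcript FPKM (read from the values, since its header names no unit). StringTie, HISAT2 2.1.0 and cutadapt appear in the submitters' processing notes, with build GRCh38, although the identifiers are mouse. Of 25790 transcripts, 25740 matched GENCODE M21 (GRCm38) and were summed into 13465 genes. Each transcript in the table averaged 0.5 FPKM or more in at least 1 group, so transcripts low in all 4 groups may be absent. The 12469 genes that reached 1 FPKM in 3 or more of the 12 libraries were tested with limma 3.58.1 in R 4.3.3 on log2(FPKM + 1), with 1 mean and 1 precision weight per group, a mean-variance trend and Benjamini-Hochberg adjustment over all genes in each contrast (threshold 0.05). All adjusted p-values are limma's. Groups came from the labels. The fit was tried on simulated libraries with normal noise of each group's spread. Those hold no outlying libraries, and the outcome is not given here. The members and lists were chosen with earlier results of these data known. From each wider list, up to 4 called genes per direction with the smallest p were eligible to be named, and those of the mean IRI effect are given, besides the 3 genes with the highest r for each member. Alternatives changed the spread, pseudocount, filter, scaling, transcripts and libraries; leaving out WT IRI 49 and CKO IRI 15 together was chosen after seeing the data. FPKM give no read depth, so no counting error is stated.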

Additional observations from a re-analysis of the deposited data

How the results depend on the processing

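The 6 calls of the mean IRI effect held under each of 22 alternatives. With 1 weight per library the called genes numbered 3551 for IRI against sham in CKO (1075 as reported), 124 between CKO and WT in sham (17), 723 after IRI (2) and 841 for the interaction (2), where 1 member was called (Plat). Fitting only the groups compared gave 476 genes and 3 members for CKO IRI against CKO sham, 11 genes between genotypes in sham and 0 after IRI. It was not run for the interaction or the mean effect. The transcript with the highest mean alone gave 697 genes for IRI in CKO, 26 in sham, 6 after IRI and 6 for the interaction. A shared spread gave 0 genes in sham and 5 after IRI, no filter gave 33 in sham, and a filter at 5 FPKM gave 1 after IRI and 1 for the interaction. Without CKO IRI 15 and WT IRI 49 there were 16 after IRI and 9 for the interaction. Leaving out 1 library gave 252 to 1672 genes for IRI in CKO (members 1 to 6), 1840 to 4344 for IRI in WT (4408), 0 to 88 in sham, 2 to 49 after IRI and 1 to 39 for the interaction. In CKO the IRI calls split 625 higher to 390 lower after quantile and 660 to 375 after trimmed-mean scaling (823 to 252). In WT they split 2088 to 2011 and 2077 to 2147 (2936 to 1472). Those scalings moved the median change of all genes over both genotypes to -0.03 and -0.01, from 0.10. Changes of uncalled members turned sign. Plau in CKO was 0.39 with 1 weight per library and 0.03 after quantile scaling, Timp2 in CKO -0.10 and Adamts1 between genotypes after IRI 0.07 without CKO IRI 15 and WT IRI 49, and the Mmp2 interaction 0.14 with 1 weight per library. With 1 library left out, Plau ran from -0.26 to 0.36 in CKO, -0.56 to 0.14 in WT, -0.15 to 0.14 between genotypes in sham, -0.19 to 0.55 after IRI, -0.17 to 0.56 in the interaction and -0.29 to 0.08 in the mean effect. Between genotypes after IRI, Timp2 ran from -0.39 to 0.02, Mmp2 from -0.23 to 0.44, Adamts1 from -0.44 to 0.14 and Plaur from -0.88 to 0.06. Timp2 in CKO ran from -0.10 to 0.30, and in the interaction Mmp2 ran from -0.52 to 0.14 and Adamts1 from -0.21 to 0.37. The causes of these shifts were not tested. CKO sham and WT sham share replicate numbers, but same-numbered libraries did not deviate together (correlations 0.004, -0.031 and -0.002). With a replicate block, 0 genes and 0 members were called between them.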
